A study of Mus musculus with 6 samples.

Results

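The 10 STAT and SOCS cytokine signalling genes Stat3, Stat5a, Stat5b, Stat6, Socs1, Socs2, Socs3, Socs5, Socs6 and Cish were chosen by symbol, with earlier results of these data known though with no threshold on their values. All 10 were found among the 28212 genes of the deposited table, and all 10 passed the filter on low counts that left 17322 genes to test. RNA was sequenced from LD-1, a mouse cholangiocarcinoma line, a cancer of bile duct cells, in 2 groups of 3 libraries, one stimulated with hepatocyte growth factor (HGF) and one serving as control. The labels give no dose of HGF, no time of exposure, no treatment of the controls, and no genotype, strain or age of the source animal. They call the material both a cell line and tissue, the extraction text speaks of an adipose type, and nothing in them tells whether replicates came from separate cultures. The p-values therefore describe variation among the 6 libraries, part of which may be technical.

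STAT proteins wait in the cytoplasm until a Janus kinase (JAK) bound to a cytokine receptor, or a receptor tyrosine kinase such as Met, the receptor of HGF, phosphorylates them. They then pair, enter the nucleus and switch on genes, among them genes of the SOCS family. SOCS proteins and CIS, the product of Cish, bind receptors or JAKs and recruit a ubiquitin ligase, which closes a negative feedback loop. In bile duct epithelium the best known input is interleukin-6, which signals through the receptor subunit gp130 to STAT3.

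Total counts ranged from 57073866 in Control 3 to 66302502 in Control 1. More genes had exactly 4 counts in a library (mean 1108.5) than 3 (527.3) or 5 (306), so a read pair may weigh 4 counts and independent molecules are fewer than the counts. Met was not called (log2 fold change 0.15 ± 0.06, SE, adjusted p = 0.0819), and Hgf had counts of 0 to 12 per library. Of 9 cholangiocyte markers Krt8, Krt18, Krt19 and Spp1 were abundant, whereas Krt7, Epcam and Cdh1 had counts of 10 to 297. The cholangiocyte markers summed to 2750 to 2770 CPM (counts scaled to library size) with HGF and 1510 to 1540 in controls, and 5 of 9 were higher in every HGF library than in every control. Control 3 stood apart: all 8 skeletal muscle markers and 7 of 10 macrophage markers were highest there. Their summed levels were 477 and 222 CPM, against 3.02 to 5.51 and 76 to 126 in the other 5 libraries. Macrophage markers summed to 117 to 126 CPM with HGF and to 76.0 and 85.6 in Control 1 and Control 2. Of these 10 markers, 2 were higher and 2 lower in every HGF library than in every control. In every HGF library 9 of 10 hepatocyte markers were higher than in every control, with summed levels of at least 20.4 CPM against 2.19 to 6.45, and Fgb and Tat were at 0 in all controls. Of 8 fibroblast markers, 5 did likewise (437 to 460 against 105 to 115 CPM). Adipocyte markers summed to 89.3 to 94.5 CPM with HGF and 113 to 129 in controls, but most of that was Pnpla2. Of the 5 adipocyte markers found, Pnpla2 had 5400 to 7047 counts per library and Lpl 249 to 775. Fabp4 had 16 to 93, Cidec 0 to 13 and Adipoq 0 to 6. Endothelial and T cell markers summed to under 8 CPM in every library. The part of these other transcripts in the values below was not tested, except that each result was also fitted without Control 3. In bulk RNA, more cells that express a gene and more RNA per cell cannot be told apart.

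With HGF, 6 of the 10 genes rose and 0 fell (edgeR quasi-likelihood test, Benjamini-Hochberg adjusted p under 0.05). Over all tested genes 19.1% were called higher and 19.3% lower, 38.5% in either direction. Stat3, Stat5b and Stat6 rose among the transcription factors, and Socs3, Socs5 and Cish among the inhibitors. The changes were small, from 1.16-fold for Stat6 to 1.38-fold for Socs5, and the median log2 fold change of the 10 genes was 0.26 against -0.02 over all tested genes. Of the genes called higher, 43.2% changed at least as much as Socs5. No member had an unadjusted p under 0.05 in the lower direction, and DESeq2 called the same numbers, 6 higher and 0 lower. In TMM-scaled CPM all HGF libraries lay above all controls in 6 members and below them in 0, where 24.9% and 26.5% of tested genes did so. With library totals in place of TMM scaling, which lowered the median of all genes by 0.1 on the log2 scale, 5 members were called higher and 2 lower. Over all genes the calls were then 2361 higher and 4941 lower, in place of 3316 and 3349.

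Levels of different genes are compared as the deposited FPKM, which are scaled by the authors to transcript length and sequencing depth. In controls Stat6 was highest at 30.4 ± 2.31 FPKM (SD, n = 3), followed by Socs3 at 29.6 ± 0.435, and the ranges of these neighbours overlapped. Stat3 (21.6 ± 1.82), Socs5 (12.6 ± 0.667), Stat5b (10.5 ± 0.898) and Stat5a (4.47 ± 0.0457) followed, each range apart from the next. Socs1 (3.87 ± 0.446) and Socs6 (3.54 ± 0.0125) overlapped, and Cish (1.99 ± 0.0514) and Socs2 (1.04 ± 0.0713) came last and stood apart. With HGF the order differed only in that Socs3 (34.5 ± 1.65) came before Stat6 (33.1 ± 3.0), again with overlapping ranges, and Stat5a now overlapped Socs1. Among tested genes Socs3 exceeded 90.2% in mean FPKM and Socs2 exceeded 32.0%. Socs3 made up 55.2% to 57.3% of the summed FPKM of the 6 inhibitors in each of the 6 libraries, and Socs5 was the next largest at 22.8% to 27.6%.

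**Figure D1:**
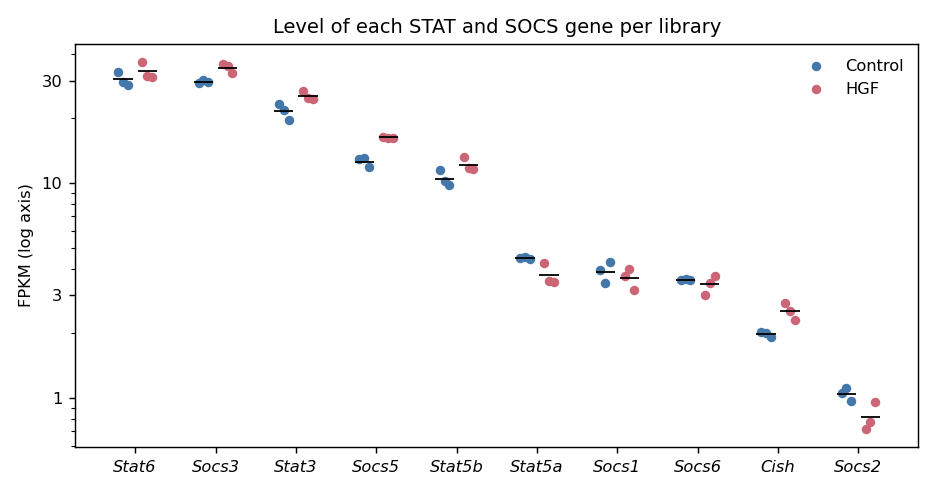
FPKM of the 10 genes on a log axis, ordered by the control mean, with 1 point per library (3 controls and 3 HGF libraries) and bars at the group means. Levels run from about 1 FPKM for Socs2 to over 30 for Stat6 and Socs3, and the order of the genes is nearly the same in both groups.

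Below, a gene's level in a library is its TMM-scaled CPM, the scale of the test, and each log2 fold change, given with its SE, is positive where HGF is higher. Coordinates come from the deposited table. For its build the submitters' processing notes list mm8, but 9 of the 10 genes, Socs6 being the exception, carry the coordinates of GENCODE M21 on GRCm38.

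Stat3 (ENSMUSG00000004040, chromosome 11, 100885098 to 100939540, minus strand) encodes the STAT that relays signals of gp130 receptors and can also dock to Met. It measured 291, 275 and 269 CPM in HGF 1 to 3 and 239, 221 and 205 in Control 1 to 3. The groups did not overlap, and the lowest library was Control 3. Stat3 rose with HGF (log2 0.33 ± 0.06, adjusted p = 0.0027, edgeR), and without Control 3 it was at 0.27 (adjusted p = 0.0056). The call was lost in 1 of 16 alternatives, limma on log2(FPKM + 1) without a filter (0.22, adjusted p = 0.0716; the lowest of the 16 was 2.71e-07).

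Stat6 (ENSMUSG00000002147, chromosome 10, 127642986 to 127660957, plus strand) encodes the STAT of interleukin-4 and interleukin-13. It measured 184, 160 and 158 CPM in HGF 1 to 3 and 156, 139 and 137 in the controls. HGF 3 and Control 1 nearly touched, and in FPKM the groups overlapped (31.2 to 36.5 against 28.5 to 33.0). Stat6 rose 1.16-fold (log2 0.22 ± 0.07, adjusted p = 0.0418, edgeR), the weakest call of the 6. The call was lost without HGF 1 (log2 0.14, adjusted p = 0.104), HGF 2 (0.25, adjusted p = 0.068), Control 2 (0.19, adjusted p = 0.137) or Control 3 (0.18, adjusted p = 0.119), and with library totals (0.12, adjusted p = 0.214). Over all 16 alternatives the adjusted p ran from 0.00278 to 0.417. Nab2 overlaps Stat6 by 40 bases on the other strand and had counts of 4046 to 5615 per library. Stat3, Stat5b and Stat6 all had their highest HGF value in HGF 1 and their highest control value in Control 1. Across 13078 genes the deviation of HGF 1 from the mean of all libraries went with transcript GC content (Spearman rho 0.31, a description across genes of that library), and with a GC correction, added after seeing the data, Stat6 was at 0.17 (adjusted p = 0.0469).

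Stat5a and Stat5b encode close paralogs that relay growth hormone, prolactin and interleukin-2 signals. Stat5b (ENSMUSG00000020919, chromosome 11, 100780731 to 100850724, minus strand) ends 8626 bases before Stat5a (ENSMUSG00000004043, chromosome 11, 100859351 to 100885169, plus strand), and Stat5a in turn overlaps the end of Stat3 by 72 bases on the other strand. A RefSeq promoter window (GRCm38.p6) of each gene holds a stretch of 65 bases with 58 identical letters. The stretch was picked for its likeness and does not show how alike the genes are as a whole. The Stat5b window that holds it, chr11:100822521-100822820, lies inside the gene. It is not the Stat5b window at the end of the gene nearest Stat5a, chr11:100850532-100850831. Capitals mark letters shared by both, Stat5a at chr11:100860418-100860482 on the plus strand and Stat5b at chr11:100822563-100822627 on the minus strand.
Stat5a: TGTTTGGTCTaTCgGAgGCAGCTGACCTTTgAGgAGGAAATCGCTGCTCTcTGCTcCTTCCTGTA
Stat5b: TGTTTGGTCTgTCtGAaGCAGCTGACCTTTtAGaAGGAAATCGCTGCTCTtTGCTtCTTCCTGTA
Of the distinct 50-base words in GENCODE M21 transcripts of Stat5b, 10.985% also occur in Stat5a transcripts, and 8.208% of those of Stat5a occur in Stat5b, so some reads could be split between them and their values are uncertain to that extent.

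Stat5b measured 83.9, 75.5 and 73.6 CPM in HGF 1 to 3 and 68.7, 60.1 and 59.4 in the controls, with every HGF library above every control. It rose 1.24-fold (log2 0.31 ± 0.07, adjusted p = 0.0102, edgeR). The call was lost in 3 of 16 alternatives, all of them limma fits on FPKM (0.20 to 0.21, adjusted p = 0.0507, 0.0516 and 0.135). The lowest adjusted p of the 16 was 1.75e-04. Stat5a measured 34.7, 29.0 and 28.6 CPM with HGF and 34.3, 34.4 and 34.6 in controls. HGF 1 lay at the control level and the other HGF libraries below it. The log2 difference was -0.16 ± 0.08 (95% interval -0.35 to 0.02, adjusted p = 0.148, edgeR), and without HGF 1 it was -0.26 (adjusted p = 0.0215; 0.0215 to 0.446 over 16 alternatives). Deposited FPKM of Stat5a did not overlap, at 3.48 to 4.24 with HGF and 4.44 to 4.53 in controls, and with library totals it was at -0.26 (adjusted p = 0.0273).

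The ratio of Stat5b to Stat5a does not depend on library scaling. In FPKM it was 3.12, 3.36 and 3.32 in HGF 1 to 3 and 2.58, 2.25 and 2.21 in the controls, so the groups did not overlap. The mean log2 ratio was 0.48 higher with HGF (exact two-sided permutation test, p = 0.1, the smallest that 3 against 3 libraries can give). Stat5a was 4.90% to 5.25% of the summed FPKM of the 4 STAT genes with HGF and 6.17% to 7.10% in controls.

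**Figure D2:**
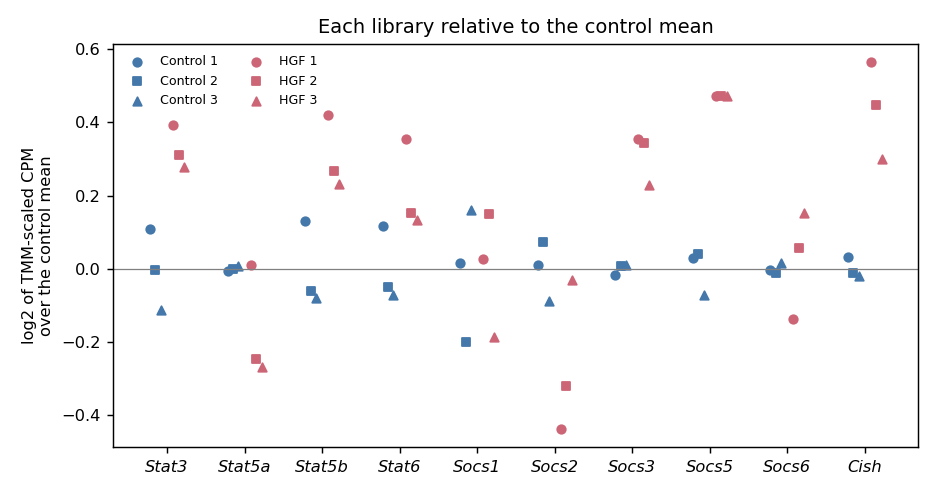
Each library's TMM-scaled CPM over the mean of the controls, on a log2 scale, for the 10 genes (circles, squares and triangles are replicates 1, 2 and 3). All HGF points lie above all control points for Stat3, Stat5b, Stat6, Socs3, Socs5 and Cish, and the HGF points of Stat5a, Socs2 and Socs6 spread more widely than their controls.

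Among the inhibitors, Socs3, Socs5 and Cish rose, and Socs1, Socs2 and Socs6 were not called. RefSeq promoter windows of 300 bases (250 before to 50 after the RefSeq start, GRCm38.p6) are printed for Cish, Socs3 and Socs1. Among the genes searched, these are the ones whose windows held a motif. The search covered 9 windows of 7 of the 10 genes. No window of Socs2, Socs5 or Socs6 was used, so the motif counts below say nothing about these genes. Whether the motifs have a part in the changes was not tested. Capitals mark the STAT motif TTCNNNGAA, which reads the same on both strands, and in Socs1 the interferon-type motif, a pair of GAAA with 2 bases between them, searched on both strands. Cish is at chr9:107296409-107296708 (plus strand), Socs3 at chr11:117969317-117969616 (minus strand) and Socs1 at chr16:10785487-10785786 (minus strand).
Cish: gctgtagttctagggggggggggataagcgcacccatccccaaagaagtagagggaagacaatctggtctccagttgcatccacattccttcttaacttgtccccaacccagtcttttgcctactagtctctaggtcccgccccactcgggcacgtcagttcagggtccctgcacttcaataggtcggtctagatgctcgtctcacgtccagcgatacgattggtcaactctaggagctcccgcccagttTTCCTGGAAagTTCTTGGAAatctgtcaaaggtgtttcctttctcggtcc
Socs3: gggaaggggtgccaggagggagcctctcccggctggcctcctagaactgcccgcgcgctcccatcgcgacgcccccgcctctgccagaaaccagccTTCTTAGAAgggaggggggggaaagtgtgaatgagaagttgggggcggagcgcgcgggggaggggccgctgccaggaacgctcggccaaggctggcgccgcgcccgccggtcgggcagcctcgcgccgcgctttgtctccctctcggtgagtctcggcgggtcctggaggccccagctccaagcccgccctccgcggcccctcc
Socs1: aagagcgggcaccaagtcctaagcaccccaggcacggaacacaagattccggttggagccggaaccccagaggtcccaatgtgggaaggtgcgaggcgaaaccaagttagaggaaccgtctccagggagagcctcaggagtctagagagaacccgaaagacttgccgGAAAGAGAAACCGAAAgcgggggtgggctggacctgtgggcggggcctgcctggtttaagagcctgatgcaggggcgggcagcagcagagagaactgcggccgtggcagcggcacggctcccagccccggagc
Cish held 2 copies, TTCCTGGAA beginning at the RefSeq start and TTCTTGGAA beginning 11 bases downstream of it. Socs3 held 1, TTCTTAGAA, beginning 154 bases upstream of its RefSeq start. Both RefSeq starts lie inside the gene spans of the deposited table, and so do these copies. The 7 windows of Stat3, Stat5a, Stat5b, Stat6 and Socs1 held 0 copies, and the form with 4 bases between TTC and GAA, which STAT6 prefers, was in 0 of the 9. Of 32851 mouse promoter windows of this length, 8.30% held TTCNNNGAA, 6.95% held the form with 4 bases between and 3.44% held the interferon-type motif. Socs1 held 2 overlapping copies of the last, GAAAGAGAAA and GAAACCGAAA.

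Cish (ENSMUSG00000032578, chromosome 9, 107296026 to 107302784), whose product CIS restrains STAT5 signalling, measured 20.4, 18.8 and 17.0 CPM in HGF 1 to 3 and 14.1, 13.7 and 13.6 in controls. The lowest HGF library was above the highest control. Cish rose 1.36-fold (log2 0.44 ± 0.09, adjusted p = 0.00351, edgeR) and was at 0.43 without Control 3 (adjusted p = 0.011). The call was lost in 1 of 16 alternatives, limma on log2(FPKM + 1) without a filter (0.24, adjusted p = 0.062; the lowest of the 16 was 9.23e-05). Gm17040 overlaps Cish by 1167 bases on the other strand and had counts of 0 to 18 per library, against 801 to 1272 for Cish. Of the distinct 50-base words of Cish, 5.885% occur antisense in Gm17041 and 3.263% in Gm17040.

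Socs3 (ENSMUSG00000053113, chromosome 11, 117966079 to 117970047), the main inhibitor of gp130 and JAK signalling, measured 118, 117 and 108 CPM with HGF, while controls measured 91.2, 92.7 and 92.8. The controls were within a narrow band and all HGF libraries lay above it. The rise was 1.24-fold (log2 0.32 ± 0.05, adjusted p = 9.4e-04, edgeR), and Socs3 stayed past the threshold in all 16 alternatives, at 0.21 to 0.37.

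Socs5 (ENSMUSG00000037104, chromosome 17, 87107679 to 87137839), which is linked to the turnover of the EGF receptor and to interleukin-4 signalling, had the largest change of the 10. It measured 121 CPM in HGF 1, HGF 2 and HGF 3 alike, while controls were at 89.0, 89.7 and 83.1. The groups stood well apart. It rose 1.38-fold (log2 0.47 ± 0.04, adjusted p = 8.7e-05, edgeR) and was called in all 16 alternatives, at 0.35 to 0.49.

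Socs1, Socs2 and Socs6 were not called. Socs1 (ENSMUSG00000038037, chromosome 16, 10782240 to 10785536), a direct inhibitor of JAK catalysis, measured 12.4, 13.5 and 10.7 CPM with HGF and 12.3, 10.6 and 13.6 in controls. The groups overlapped fully, and the interval of the log2 difference ran from -0.28 to 0.28 (adjusted p = 0.992, edgeR). Socs2 (ENSMUSG00000020027, chromosome 10, 95385362 to 95417180), an inhibitor of growth hormone signalling, measured 7.93, 8.59 and 10.5 CPM with HGF and 10.8, 11.3 and 10.1 in controls. HGF 3 lay among the controls and the other HGF libraries below them (log2 -0.26 ± 0.12, interval -0.53 to 0.02, adjusted p = 0.13, edgeR). Deposited FPKM of Socs2 did not overlap, at 0.72 to 0.953 with HGF and 0.965 to 1.11 in controls. Without HGF 3 Socs2 was at -0.37 (adjusted p = 0.0315), and with library totals at -0.36 (adjusted p = 0.0443), in a range of 0.0315 to 0.327 over 14 alternatives. The FPKM filter of the other limma fits removed it. Socs6 (ENSMUSG00000056153, chromosome 18), an adaptor that binds receptor tyrosine kinases, measured 39.4, 45.1 and 48.2 CPM with HGF around controls of 43.2, 43.0 and 43.8 (log2 0.03 ± 0.08, interval -0.14 to 0.20, adjusted p = 0.803, edgeR). In 50-base words, 4.186% of Socs2 and 6.136% of Socs6 are shared with the predicted genes Gm9847 and Gm9449.

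**Figure D3:**
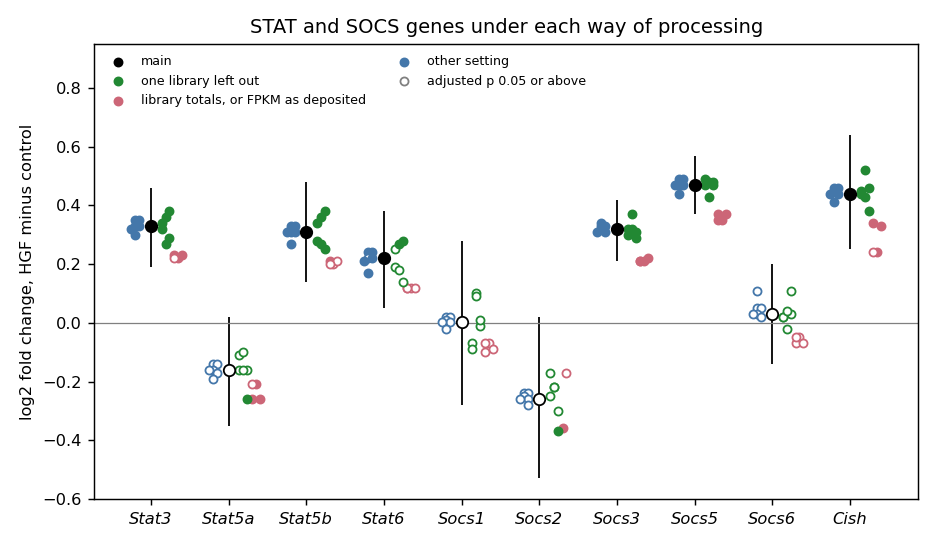
Log2 fold change of each gene, HGF minus control, in the reported fit (black, with its 95% interval) and in 16 alternatives, grouped by colour, where open points have an adjusted p of 0.05 or above. Socs3 and Socs5 are filled throughout, Stat6 is open in 9 of 16, and fits on library totals or on FPKM as deposited (red) lie below the reported value for 9 of the 10 genes and on both sides of it for Socs2.

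Among the other STAT and SOCS genes no member was called higher, beside 19.1% higher and 19.3% lower over all tested genes. Of the 4 tested, 0 were called higher and 2 lower, with a median log2 fold change of -0.23 (0 higher and 2 lower by unadjusted p under 0.05 and by DESeq2), while Stat4 was below the filter with counts of 0 to 19. Stat2, a STAT of type I interferon signalling, fell from 12.6 ± 0.161 to 9.28 ± 0.259 FPKM (log2 -0.35 ± 0.05, adjusted p = 5.01e-04, edgeR). Socs4, the closest relative of Socs5, fell from 2.30 ± 0.175 to 1.48 ± 0.0779 FPKM (log2 -0.54 ± 0.09, adjusted p = 0.00132), opposite to Socs5.

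Of the 4 Janus kinases, 0 were called higher and 2 lower, with the same counts by unadjusted p under 0.05 and by DESeq2. The shares over all tested genes were 19.1% higher and 19.3% lower. Jak3, the kinase of the common gamma chain, had a log2 fold change of -0.48 ± 0.06 (adjusted p = 4.51e-04, edgeR), and Tyk2 one of -0.28 ± 0.07 (adjusted p = 0.0136). Tyk2 missed the threshold without HGF 2, HGF 3 or Control 1 (adjusted p = 0.0608, 0.0516 and 0.0543). Of the 6 partners in the SOCS ubiquitin ligase, 0 were called higher and 2 lower, the ring protein gene Rbx1 at -0.16 ± 0.04 and the elongin gene Elob at -0.24 ± 0.07 (adjusted p = 0.0186 and 0.035). Without HGF 2, Control 2 or Control 3 this list had 0 calls, and 1 without HGF 1 or HGF 3.

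Of 8 tested ligand genes of the gp130 family 4 rose, 0 fell and 4 were not called (0 lower by unadjusted p under 0.05 and by DESeq2), with a median log2 fold change of 0.64. Il11 rose from 0.680 ± 0.198 to 2.66 ± 0.271 FPKM (log2 2.06 ± 0.21, adjusted p = 1.41e-04, edgeR), and Lif from 7.92 ± 0.483 to 13.8 ± 0.766 (0.90 ± 0.06). Clcf1, which encodes a cardiotrophin-like cytokine, rose by 0.54 ± 0.10. Of 6 tested receptor genes 1 rose, 4 fell and 1 was not called, beside 19.1% higher and 19.3% lower over all genes, and the lists were not tested against each other. Lifr, the receptor of Lif, fell from 4.43 ± 0.0794 to 2.13 ± 0.160 FPKM (log2 -0.96 ± 0.07, adjusted p = 2.1e-05), while Osmr and Il11ra1 had log2 fold changes of -0.60 ± 0.06 and -0.68 ± 0.07. Il6ra, the specific subunit for interleukin-6, rose from 1.48 ± 0.0942 to 2.55 ± 0.0283 FPKM (0.88 ± 0.07, adjusted p = 4.5e-05). Il6st, which encodes gp130 itself and was picked out after its values were seen, fell from 13.2 ± 0.733 to 9.91 ± 0.222 FPKM (log2 -0.32 ± 0.05, adjusted p = 8.2e-04).

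Of 8 tested interleukin-2, interleukin-4 and interleukin-13 family receptors, 4 rose and 0 fell (0 lower by unadjusted p under 0.05 and by DESeq2). All tested genes gave 19.1% higher and 19.3% lower. Il4ra, shared by both STAT6 cytokines, rose from 10.0 ± 0.371 to 14.5 ± 0.884 FPKM (log2 0.63 ± 0.05, adjusted p = 5.1e-05, edgeR), and its partner Il13ra1 from 30.9 ± 1.55 to 39.8 ± 1.78 (0.46 ± 0.05). Il15ra rose by 0.37 ± 0.10, a call lost with library totals (0.27, adjusted p = 0.0568). Il13ra2, a decoy receptor, had counts of 11, 23 and 12 with HGF and 0 in every control, at least 3.99-fold higher against a floor of 12 counts over the control group. It passed the filter on low counts only through the HGF group, so it had to differ, and with counts divided by 4 the list had 3 genes higher. With library totals 1 gene of this list was called lower, and with limma on log2(FPKM + 1) 2 were called higher and 1 lower.

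Interferon and interleukin-10 family receptors gave 0 higher and 3 lower of 9 tested, beside 19.1% and 19.3% over all tested genes. By unadjusted p under 0.05 and by DESeq2 0 were higher, and with library totals 6 were lower. Ifngr1, the ligand-binding chain of the interferon gamma receptor, fell from 17.3 ± 0.363 to 11.2 ± 0.761 FPKM (log2 -0.53 ± 0.06, adjusted p = 2.95e-04, edgeR), and Ifngr2 was at -0.27 ± 0.06. Of 6 tested homodimeric and common beta chain receptors 1 rose and 2 fell. Il3ra rose by 0.44 ± 0.10, while Csf2ra and Csf2rb, at 0.425 and 0.196 FPKM in controls, were not called without Control 3 (adjusted p = 0.102 and 0.132), HGF 2 (0.0838 and 0.118), HGF 1 (Csf2ra, 0.0653), HGF 3 (Csf2rb, 0.121) or Control 2 (Csf2rb, 0.0803). Control 3 was also the library with the highest macrophage markers, 222 CPM against 76 to 126, and their part beyond that fit was not tested. Il20rb, at -0.48 ± 0.16 (adjusted p = 0.042), missed the threshold when any 1 library was left out (adjusted p = 0.0557 to 0.139) and in DESeq2 (0.0592).

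Of 12 other inhibitors of the pathway 3 were called higher and 2 lower, near the shares over all genes (19.1% and 19.3%), and their median of -0.02 equalled that of all genes. Pias3, an inhibitor of STAT3 DNA binding, fell from 22.6 ± 1.05 to 12.4 ± 0.381 FPKM (log2 -0.77 ± 0.05, adjusted p = 1.8e-05, edgeR). The phosphatase genes Ptpn6 and Ptpn1 rose by 0.58 ± 0.07 and 0.19 ± 0.04, the latter not called with library totals (0.08, adjusted p = 0.103), and Usp18, an inhibitor of interferon receptors, by 0.35 ± 0.06. The count of 2 lower became 1 without HGF 2, without Control 2, with DESeq2, with median-of-ratios scaling and without the filter. It became 4 without HGF 3, with library totals and with both filtered limma fits.

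Genes listed as STAT targets, many of which also respond to other pathways, had members in both directions. Beside them, 19.1% of all tested genes were called higher and 19.3% lower. Of 20 STAT3 targets 11 rose and 4 fell (median log2 fold change 0.25), but 6 rose without HGF 2 or with any of the 3 limma fits, and 7 without Control 1, without Control 2 or with library totals. Ccnd1 (cyclin D1) and Timp1, an inhibitor of metalloproteinases, both rose by 0.81 ± 0.04 and Vegfa by 0.49 ± 0.04, whereas Fos fell by 0.98 (SE 0.05). Of 8 tested STAT5 targets 2 rose and 2 fell, with a median of 0.09 that was -0.01 with library totals. Cdkn1a, which encodes the cell cycle inhibitor p21, rose by 0.69 ± 0.04 and Akt1 by 0.29 ± 0.05, while the kinase gene Pim2 and Id1 fell by 0.64 (SE 0.09) and 0.33 (SE 0.04). Of 7 tested STAT6 targets 5 rose and 0 fell (0 lower by unadjusted p under 0.05 and by DESeq2, 1 lower without Control 3), with a median of 1.02. Besides Il4ra these include the transglutaminase gene Tgm2, from 27.9 ± 1.45 to 53.0 ± 2.38 FPKM (1.02 ± 0.05, adjusted p = 5e-06, edgeR), Klf4 at 0.63 ± 0.08 and Arg1 at 2.40 ± 0.19. Arg1 is also a liver enzyme gene, and the hepatocyte markers above were higher in the same libraries, a link that was not tested. The macrophage genes Retnla and Chil3 of this list were below the filter.

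**Figure D4:**
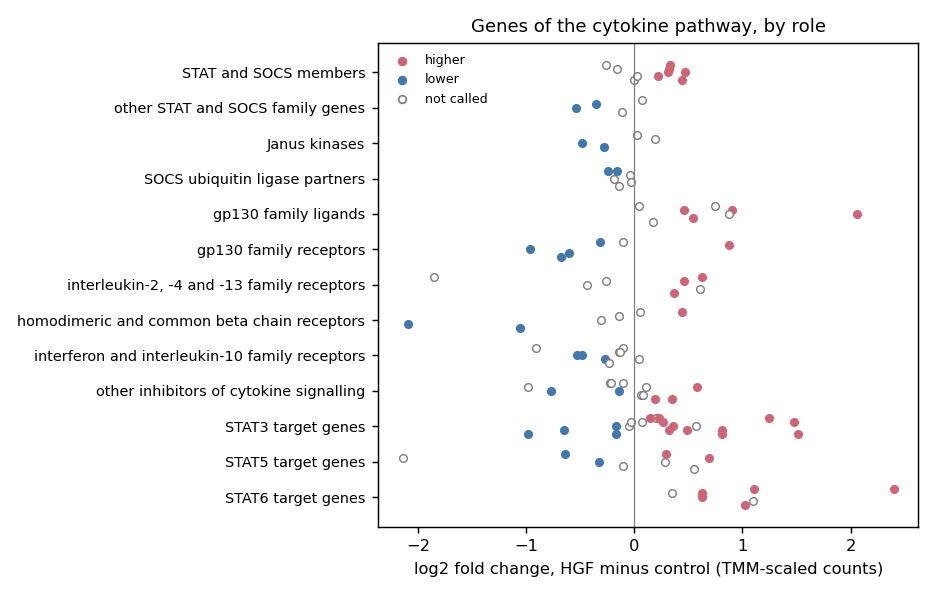
Log2 fold change of every tested gene of each list, HGF minus control, on TMM-scaled counts (red called higher, blue called lower, open not called), with Il13ra2 left out because its controls are at 0. The gp130 ligands, interleukin-4 family receptors and STAT6 targets hold red and open points, the Janus kinases and other STAT and SOCS genes blue and open ones, and the gp130 receptors 4 blue and 1 red.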

How the data were processed

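Per the labels' protocols, libraries of poly(A) RNA were sequenced from both ends (Illumina NovaSeq). The authors deposited 1 table with a count and an FPKM column per library, per the file headers, and all 12 columns were matched to samples by name. The deposited counts are whole numbers per gene, used as given. The deposited FPKM were normalised by the authors for length and library size. The submitters' processing notes list StringTie 1.3.0, HISAT2 2.0, Bowtie 0.12.2 and the build mm8, without roles. Use of strand in counting is not stated there, so genes that overlap on opposite strands could share counts.

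Groups came from sample titles. Low counts were removed by filterByExpr, TMM scaling was applied (factors 0.963 to 1.04) and genes were tested with edgeR 4.0.16 in R 4.3.3 (quasi-likelihood, two-sided, Benjamini-Hochberg over 17322 genes, threshold 0.05). The SE is the log2 fold change divided by the square root of F. Alternatives used DESeq2 1.42.0, limma 3.58.1 on log2(FPKM + 1) or log2(FPKM + 0.1) (FPKM of at least 1 in 3 libraries, or no filter), which understates changes of low genes, other scalings and filters, counts divided by 4, a replicate block and leaving out each library. Members and lists were chosen with earlier results of these data known. Genes named were the 10 members, Met and Hgf, and from each list up to 4 called genes with the smallest p, apart from a few genes that are not reported here. A group at 0 was set to a floor of 12 counts, or 3 read pairs. Replicates correlated at 0.971 to 0.987 (log2 CPM), and each pair of replicates exceeded sampling noise (a chi-square of 2.73 to 7.07 for each degree of freedom, counts divided by 4). On simulated counts of HGF against control (3 simulations, 17322 genes, 200 of them changed, far fewer than were called here) the test recovered 17.5% of genes changed 1.25-fold and 50.7% of those changed 1.5-fold, and unchanged genes made up 8.12% of calls.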

Additional observations from a re-analysis of the deposited data

How the results depend on the processing

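Socs3 and Socs5 kept their direction and their call in all 16 alternatives, and Stat3, Stat5b, Stat6 and Cish kept their direction. The count of members called higher was 6, 5 with library totals or without the low-count filter, 4 with limma on log2(FPKM + 1) or log2(FPKM + 0.1), and 2 with limma on log2(FPKM + 1) without a filter. The count called lower was 0, and became 2 with library totals (Stat5a and Socs2) and 1 with limma on log2(FPKM + 1) or log2(FPKM + 0.1) (Stat5a in both). Leaving out a library gave 5 to 6 members higher and 0 to 1 lower. Genes called higher numbered 2061, 2050 and 2065 with limma on log2(FPKM + 1), on log2(FPKM + 0.1) and without a filter, against 3316. Socs1, near 0, changed sign with library totals (-0.1), with limma (-0.07, -0.09 and -0.07 in the same order), with the GC correction (-0.02), and without HGF 1, HGF 2 or Control 2 (-0.09 to -0.01; at most 0.10 without another library). Socs6 did so with library totals (-0.07), with limma (-0.05, -0.07 and -0.05) and without HGF 3 (-0.02), in a range of -0.02 to 0.11 without 1 library. The cause was not tested, except that library totals and FPKM lack the TMM factors. Of 615 values for 39 named pathway genes, 572 kept direction and call, 43 lost the call and 0 changed sign. These genes were named as called genes with the smallest p of their lists, so this count favours kept calls. Of 384 list counts, 45 moved by over 1.5 times. The GC correction and the refits of lists were added after seeing the data.

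Across tested genes, same-numbered libraries did not deviate together (correlations 0.059, -0.03 and 0.038), and HGF 1 correlated best with Control 2 (0.064). For single genes these correlations cannot tell whether the numbers pair libraries. In the fit with a replicate block the SE went from 0.06 to 0.03 for Stat3, from 0.07 to 0.04 for Stat5b and from 0.07 to 0.03 for Stat6. It stayed at 0.04 for Socs5 and rose from 0.12 to 0.14 for Socs1. With the replicate block 6 members were called higher and 0 lower, and the genes called were 3406 higher and 3440 lower. With 1 library left out, the log2 difference of the Stat5b to Stat5a ratio was 0.44 to 0.55. Its sign could not change, because the groups did not overlap. A gene not called is not shown to be unchanged.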
